A study of Mus musculus with 11 samples.

Results

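Motile cilia beat on ependymal cells, the epithelium that lines the brain ventricles and moves cerebrospinal fluid along their walls. Each cilium is built around an axoneme, a ring of microtubule doublets around a central pair. Outer and inner dynein arms drive sliding between the doublets, radial spokes and the central apparatus control it, and nexin links hold the doublets together. The transcription factors FOXJ1, RFX2 and RFX3 and the coactivator multicilin (Mcidas) switch on the genes that build it. The 34 genes described here code for parts of that machinery, for its regulators and for markers of ciliated cells. They were chosen by symbol, and all 34 were found among the 46202 rows of the deposited table.

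The table holds RNA sequencing of the hippocampus, which borders the lateral ventricle, from male mice of strain C3-C57B1/6J at 2 to 3 months of age that were housed singly. Insulin was given into the nose at 2.4 IU per nare, and tissue was taken under isoflurane. The groups are saline (n = 3), insulin for 15 min (n = 2, replicates 1 and 3), insulin for 1 h (n = 3) and insulin for 6 h (n = 3). By title the controls had saline, but the labels give them as untreated and at 0 min, so the time of sampling and the insulin cannot be told apart. Whether each library is a separate animal is not stated outright, and p-values measure the spread between libraries.

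Values are log2 signals that the authors had quantile-normalized between libraries, so the files do not show the depth behind a value or its counting error. Across 4487 rows with a value in only 1 to 4 libraries, the signal dropped by 0.92 log2 per doubling of the gene's genomic span (Pearson r = -0.93 across genes, which are not independent replicates). The deposited level thus behaves as signal per length of the whole gene, introns included, and levels of different genes are compared below on that scale only. Each of the 34 genes had a value in all 11 libraries and passed the filter on low values. The lowest mean over all libraries was -6.20 log2 for Stoml3 and the highest was 1.06 for Foxj1, against a filter limit of -8.66.

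The RFX factors bind the X-box, which has a pair of arms, and FOXJ1 is a forkhead factor, so promoters were searched for the letters of both. RefSeq (GRCm38.p6) holds 30 promoter windows for 28 of the 34 genes. In the 250 bases before the start site, on either strand, the X-box arm GTTGCC occurred in 11 of these 30 windows (36.7%) and in 10.4% of all 32851 promoters. The full X-box, here GTTNCC facing its own reverse complement across 2 free bases, overlaps a single arm where N reads G on that strand. It occurred in 1 window, 1 of the 2 of Pifo (3.33%), against 0.374% of all promoters. That window (106001448 to 106001747) lies inside the span of Pifo (105996957 to 106014646, minus strand). The other Pifo window (106014597 to 106014896), at the start of the span, held no match to any of the motifs. The forkhead letters TGTTTAC occurred in 2, those of Mlf1 and Stoml3 (6.67%), against 3.17% of all promoters. A match is a description of the letters and not a bound site. Below are 6 of these promoters, chosen to show both motifs, a regulator, a structural gene and some genes with large differences at 6 h. For Pifo and Tekt1, which have 2 windows each, the window that holds a match is printed. Spag16, with the lowest log2 change at 6 h (-1.01), has the X-box arm on both strands but is not printed. Capitals mark a match on either strand.
Ccdc153, chr9:44240517-44240675, plus strand, X-box arm: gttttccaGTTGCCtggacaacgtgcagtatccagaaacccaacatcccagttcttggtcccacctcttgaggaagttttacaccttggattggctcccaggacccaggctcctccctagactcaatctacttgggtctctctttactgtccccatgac
Mlf1, chr3:67373937-67374096, plus strand, forkhead letters and X-box arm: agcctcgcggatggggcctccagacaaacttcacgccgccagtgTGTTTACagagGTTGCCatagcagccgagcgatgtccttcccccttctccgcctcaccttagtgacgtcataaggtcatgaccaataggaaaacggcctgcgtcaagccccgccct
Pifo, chr3:106001498-106001560, minus strand, full X-box: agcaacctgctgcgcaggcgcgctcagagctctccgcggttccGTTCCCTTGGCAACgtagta
Rfx2, chr17:56831014-56831168, minus strand, X-box arm: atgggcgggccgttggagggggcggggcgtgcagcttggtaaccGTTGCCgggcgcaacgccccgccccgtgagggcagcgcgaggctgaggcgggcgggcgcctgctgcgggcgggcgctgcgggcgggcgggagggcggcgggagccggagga
Stoml3, chr3:53488547-53488652, plus strand, forkhead letters: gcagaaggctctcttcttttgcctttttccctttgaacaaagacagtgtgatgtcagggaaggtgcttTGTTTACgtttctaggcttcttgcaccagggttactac
Tekt1, chr11:72361883-72362042, minus strand, X-box arm on both strands: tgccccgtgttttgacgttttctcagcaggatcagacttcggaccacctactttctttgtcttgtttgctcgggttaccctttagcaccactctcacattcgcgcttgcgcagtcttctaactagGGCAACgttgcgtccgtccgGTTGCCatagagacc

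None of the 34 genes passed the test in any comparison. Signals below the gene's saline mean numbered 33 of 34 in 6 h replicate 1, 28 in 6 h replicate 2 and 17 in 6 h replicate 3. The number was also 28 in 1 h replicate 2, 25 in 15 min replicate 3 and 24 in saline replicate 2. In the other libraries it lay between 7 and 19. The share of all rows below their saline mean was not computed. The test was limma's moderated test on the whole table with Benjamini-Hochberg adjustment at 0.05. Called were 0 of 34 at 15 min (0.239% of all rows tested), 0 at 1 h (0.877%) and 0 at 6 h (0%). Also 0 of 34 were called between 6 h and 1 h (0.0108% of rows), between all 8 insulin libraries and saline (0.119%), and by the F test over the 3 insulin times (0.365%). The smallest adjusted p among the 34 by limma was 0.40 at 15 min, 0.46 at 1 h, 0.70 at 6 h, 0.34 between 6 h and 1 h, 0.42 over all insulin libraries and 0.35 in the F test.

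The median log2 change against saline was -0.03 at 15 min and -0.04 at 1 h over the 34 genes, beside -0.14 and -0.11 over all rows. At 6 h it was -0.40 over the 34 genes and -0.04 over all rows. Log2 changes below 0 numbered 19 of 34 at 15 min (68.7% of all rows), 22 of 34 at 1 h (66.8%) and 27 of 34 at 6 h (57%). At 15 min the count was 25 without replicate 1 and 10 without replicate 3. Scaling by cyclic loess, which levels the libraries against each other along the signal range, gave 5 at 15 min (49.6% of rows) and 8 at 1 h (50.1%). Scaling to equal medians over the rows with a value in every library gave 6 (44.8%) and 12 (44.4%). The direction at 15 min and at 1 h thus depended on the scaling and at 15 min on single libraries, while at 6 h the count was 27 under both scalings. The 3 comparisons share their saline libraries, so they are not independent.

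**Figure D1:**
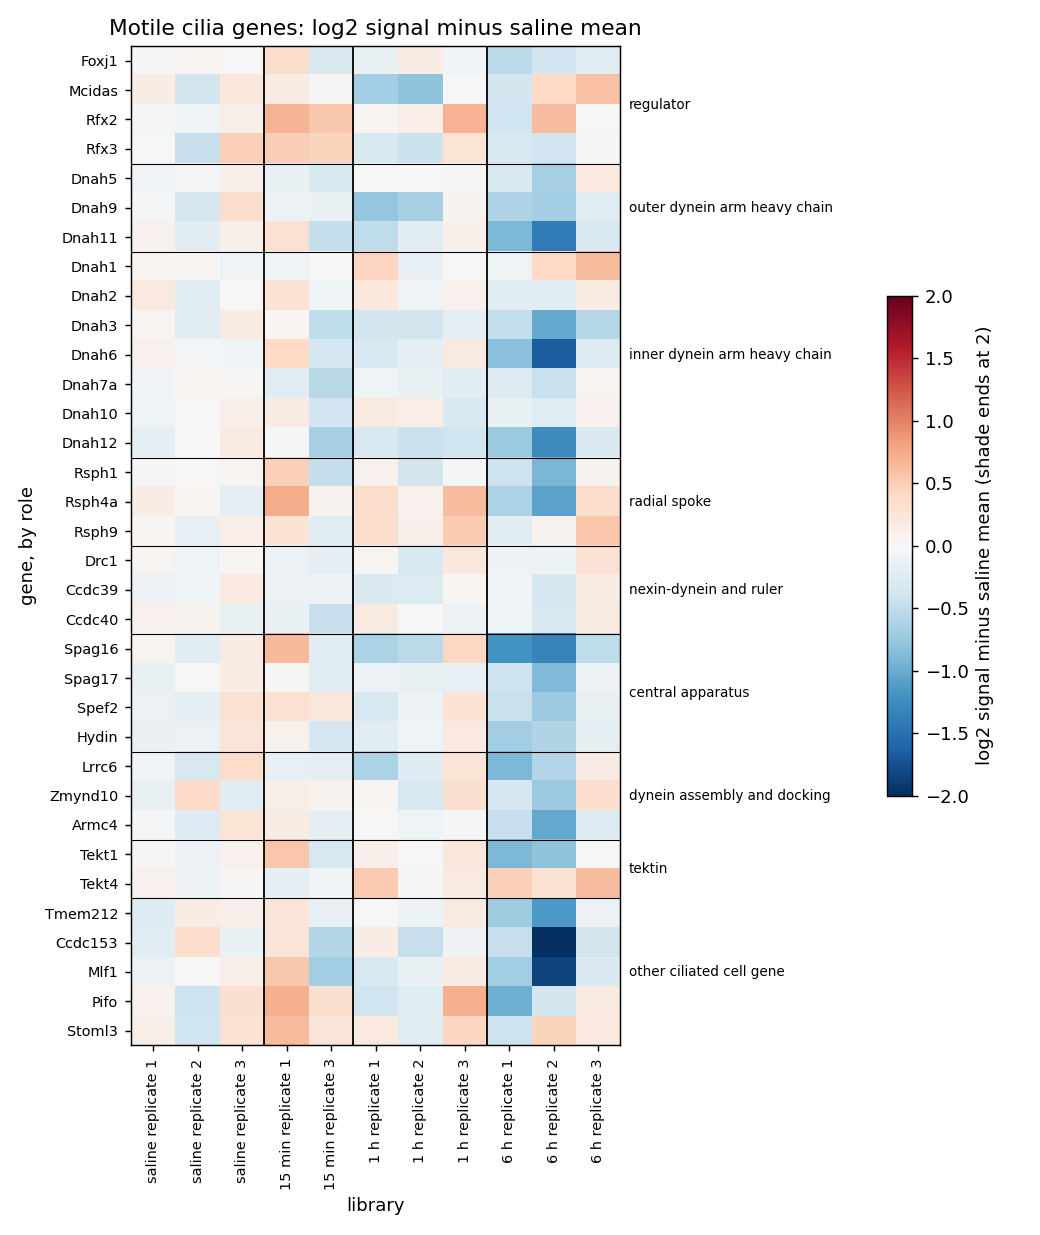
Log2 signal minus the saline mean for 34 motile cilia genes (rows, by role) in 11 libraries (columns, by group), with blue below and red above the saline mean and the shade ending at 2. Signals lie below the saline mean in 33 rows of 6 h replicate 1, 28 of 6 h replicate 2 and 17 of 6 h replicate 3. They do so in 28 rows of 1 h replicate 2, 25 of 15 min replicate 3 and 24 of saline replicate 2.

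Without adjustment, 10 of 34 genes had p under 0.05 at 6 h, against 6.98% of all rows, and 0 did so at 15 min (15.1% of rows) or at 1 h (15.7%). Over all insulin libraries the number was 0 (12.1% of rows). In the F test it was 0 (14.4%), but 10 under cyclic loess (11.3%), 9 with equal medians (12.8%), 7 without 6 h replicate 3 (13%) and 5 without 15 min replicate 3 (11.3%). Of the 10 at 6 h, 9 were lower (4.23% of rows), namely Foxj1, Tmem212, Ccdc153, Dnah3, Dnah6, Dnah11, Dnah12, Spag16 and Mlf1. The tenth, Tekt4, was higher (2.75% of rows). The count of 10 depends on single libraries: it was 15 without 6 h replicate 3, 1 without 6 h replicate 2, 1 without saline replicate 3, 5 without 6 h replicate 1 or saline replicate 1, and 6 without saline replicate 2. The median at 6 h was -0.61 without 6 h replicate 3, -0.23 without 6 h replicate 2 and -0.27 without 6 h replicate 1.

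Every 6 h library lay below every saline library for 10 of 34 genes (8.4% of all rows) and above for 1, Tekt4 (4.13%). The 10 were Foxj1, Ccdc153, Dnah3, Dnah6, Dnah11, Dnah12, Spag16, Hydin, Armc4 and Mlf1. At 15 min the groups did not overlap for 3 genes lying below (29.8% of rows; Dnah5, Dnah7a and Drc1) and 2 above (6.66%; Rfx2 and Pifo). At 1 h they did not overlap for 2 below (20.5%; Dnah7a and Dnah12) and 0 above (5.97%). Shares near or under those of all rows, as at 15 min and 1 h, say nothing particular of the cilia genes.

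The regulators differed among themselves. Foxj1 (chromosome 11, 116330704 to 116335499), the forkhead factor of motile cilia, had log2 signals of 1.13, 1.22 and 1.16 with saline, 1.51 and 0.88 at 15 min, 1.03, 1.32 and 1.12 at 1 h, and 0.62, 0.79 and 0.94 at 6 h. All 3 libraries at 6 h lay below all 3 with saline, and the pair at 15 min stood on both sides of them. It averaged 0.78 ± 0.16 at 6 h and 1.17 ± 0.05 with saline (SD, n = 3 each), a log2 change of -0.38 (SE 0.15) with a limma adjusted p of 0.70. Rfx3 (chromosome 19, 27761721 to 28014669), which acts in ciliogenesis of many cell types, had -0.56, -1.02 and -0.08 with saline, -0.07 and -0.11 at 15 min, -0.86, -0.98 and -0.29 at 1 h, and -0.87, -0.94 and -0.59 at 6 h. Its saline libraries spread the most of the regulators and overlapped with every insulin group.

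Rfx2 (chromosome 17, 56775897 to 56831008), its relative whose promoter holds the X-box arm printed above, had the highest log2 change of the 34 at 15 min. Its signals were -4.93, -4.98 and -4.77 with saline, -4.21 and -4.35 at 15 min, -4.83, -4.77 and -4.19 at 1 h, and -5.29, -4.28 and -4.91 at 6 h. Both 15 min libraries lay above all saline libraries, with a log2 change of 0.61 (SE 0.32) and a limma adjusted p of 0.40. Mcidas, the coactivator that starts multiciliated cell differentiation, had -4.78, -5.29 and -4.71 with saline, -4.78 and -4.91 at 15 min, -5.60, -5.74 and -4.92 at 1 h, and -5.29, -4.52 and -4.34 at 6 h. Its log2 change was the lowest of the 34 at 1 h (-0.49, SE 0.32) and above 0 at 6 h (0.21, SE 0.32), and its groups overlapped at both times.

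**Figure D2:**
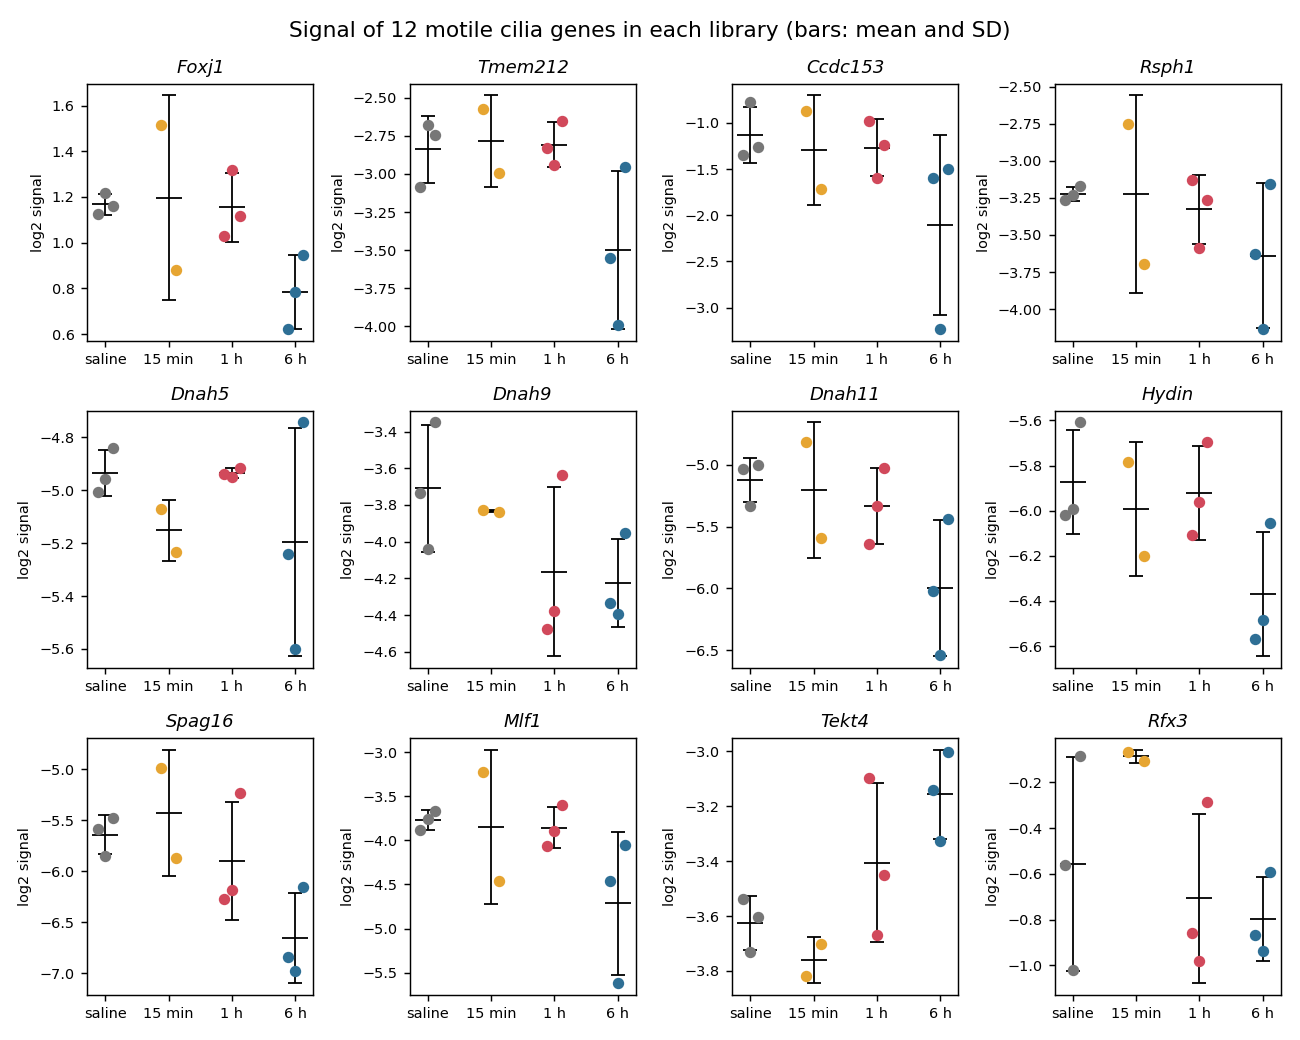
Log2 signal (vertical axes, each with its own range) of 12 motile cilia genes in saline and at 15 min, 1 h and 6 h after insulin; points are libraries, bars the mean and SD. Foxj1, Ccdc153, Dnah11, Spag16, Hydin and Mlf1 lie below saline in all 6 h libraries and Tekt4 lies above.

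The 3 outer arm heavy chains, the motors that set beat frequency, had log2 changes at 6 h of which the lowest was -0.88 and the highest -0.26. Dnah11 (chromosome 12, 117877982 to 118199043) had signals of -5.03, -5.33 and -5.00 with saline, -4.82 and -5.60 at 15 min, -5.64, -5.33 and -5.02 at 1 h, and -6.02, -6.54 and -5.44 at 6 h. The 6 h libraries lay below all saline libraries, with a log2 change of -0.88 (SE 0.34, limma adjusted p = 0.70). Dnah9 (chromosome 11, 65831324 to 66168581) had -3.74, -4.04 and -3.35 with saline, -3.83 and -3.84 at 15 min, -4.48, -4.38 and -3.64 at 1 h, and -4.33, -4.40 and -3.95 at 6 h. Replicates 1 and 2 of both later times were below every saline library, and replicate 3 was not. Dnah5 (chromosome 15, 28154854 to 28472045) had -5.01, -4.96 and -4.84 with saline, -5.07 and -5.23 at 15 min, -4.94, -4.95 and -4.92 at 1 h, and -5.24, -5.60 and -4.74 at 6 h. At 1 h its libraries lay within the saline range, and at 6 h they stood on both sides of it.

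Among the 7 inner arm heavy chains, Dnah3, Dnah6 and Dnah12 had the largest differences at 6 h and Dnah2 and Dnah10 the smallest. Dnah12 had log2 signals of -4.76, -4.55 and -4.40 with saline, -4.61 and -5.23 at 15 min, -4.87, -5.01 and -4.97 at 1 h, and -5.32, -5.82 and -4.86 at 6 h. All libraries at 1 h and 6 h were below all saline libraries, with log2 changes of -0.38 (SE 0.28) and -0.77 (SE 0.28) and limma adjusted p of 0.56 and 0.70. At 6 h the log2 change of Dnah6 was -0.92 (SE 0.35) and that of Dnah3 was -0.70 (SE 0.25). Dnah2 and Dnah10 each had -0.10 (SE 0.23).

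Dnah1 was the inner arm gene with a higher mean at 6 h. It had -2.83, -2.83 and -2.94 with saline, -2.95 and -2.86 at 15 min, -2.44, -3.03 and -2.88 at 1 h, and -2.95, -2.46 and -2.24 at 6 h, so that 6 h replicate 1 lay under the saline libraries and the other two above them. Dnah7a, which has near copies described below, had -5.13, -5.04 and -5.04 with saline, -5.28 and -5.62 at 15 min, -5.16, -5.21 and -5.30 at 1 h, and -5.32, -5.51 and -5.01 at 6 h. Its 15 min and 1 h libraries were below all saline libraries by log2 changes of -0.39 (SE 0.24) and -0.16 (SE 0.22).

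The radial spoke head genes showed no common order. Rsph1 (chromosome 17, 31255019 to 31277296) had -3.27, -3.23 and -3.17 with saline, -2.75 and -3.70 at 15 min, -3.13, -3.59 and -3.26 at 1 h, and -3.63, -4.13 and -3.16 at 6 h. Rsph4a had -1.51, -1.62 and -1.84 with saline, -0.92 and -1.58 at 15 min, -1.30, -1.57 and -1.03 at 1 h, and -2.29, -2.73 and -1.31 at 6 h. Both overlapped with saline at every time, and 6 h replicate 3 was above all saline libraries in both. Rsph9 had -1.29, -1.50 and -1.19 with saline, -1.03 and -1.54 at 15 min, -0.98, -1.23 and -0.81 at 1 h, and -1.53, -1.26 and -0.77 at 6 h. Its 1 h change of 0.33 (SE 0.21, limma adjusted p = 0.49) and that of Rsph4a, 0.36 (SE 0.32, adjusted p = 0.64), were the highest of the 34 at that time.

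Drc1, of the nexin-dynein regulatory complex, and Ccdc39 and Ccdc40, the ruler proteins that space the inner arms, had log2 changes of 0.03, -0.09 and -0.07 at 6 h (SE 0.15 to 0.18). At 15 min these were -0.16, -0.11 and -0.30 (SE 0.16 to 0.20). Ccdc40 had -3.25, -3.26 and -3.48 with saline, -3.48 and -3.78 at 15 min, -3.15, -3.31 and -3.45 at 1 h, and -3.41, -3.64 and -3.16 at 6 h. Its groups overlapped, as did those of Ccdc39, whereas both 15 min libraries of Drc1 lay below all saline libraries.

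The 4 central apparatus genes all had log2 changes below 0 at 6 h, between -1.01 and -0.44. Spag16 (chromosome 1, 69826872 to 70725132) had the lowest change of the 34, with signals of -5.59, -5.85 and -5.48 with saline, -4.99 and -5.87 at 15 min, -6.27, -6.19 and -5.23 at 1 h, and -6.84, -6.97 and -6.15 at 6 h. The difference of its log2 means at 6 h and with saline equals a ratio of 0.495 (log2 change -1.01, SE 0.38, limma adjusted p = 0.70). The 2 groups did not overlap. Hydin (chromosome 8, 110266968 to 110610253) had -6.02, -5.99 and -5.61 with saline, -5.78 and -6.20 at 15 min, -6.11, -5.96 and -5.69 at 1 h, and -6.57, -6.48 and -6.06 at 6 h. Here too the 6 h libraries lay below all saline libraries, by a log2 change of -0.50 (SE 0.27), while Spag17 (-0.46, SE 0.27) and Spef2 (-0.44, SE 0.23) had overlapping groups.

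Lrrc6 and Zmynd10, which preassemble dynein arms in the cytoplasm, and Armc4, which helps to dock the outer arm, had log2 changes of -0.44 (SE 0.34), -0.24 (SE 0.28) and -0.58 (SE 0.28) at 6 h. The tektins, filament proteins of the doublet wall, had log2 changes of opposite sign at 6 h. Tekt1 had a log2 change of -0.57 (SE 0.28). Tekt4 had log2 signals of -3.54, -3.73 and -3.60 with saline, -3.82 and -3.70 at 15 min, -3.10, -3.67 and -3.45 at 1 h, and -3.14, -3.33 and -3.00 at 6 h. It averaged -3.16 ± 0.16 at 6 h and -3.62 ± 0.10 with saline (SD, n = 3 each), a log2 change of 0.47 (SE 0.18) with a limma adjusted p of 0.70.

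The ciliated cell markers Ccdc153 and Mlf1 had the widest ranges of the 34 genes over the 11 libraries, 2.45 and 2.39 log2. Ccdc153 (chromosome 9, 44240677 to 44247306) had log2 signals of -1.34, -0.78 and -1.27 with saline, -0.88 and -1.71 at 15 min, -0.98, -1.59 and -1.24 at 1 h, and -1.59, -3.23 and -1.50 at 6 h. Mlf1 (chromosome 3, 67374097 to 67400000) had -3.88, -3.76 and -3.66 with saline, -3.23 and -4.46 at 15 min, -4.07, -3.90 and -3.60 at 1 h, and -4.46, -5.62 and -4.06 at 6 h. In both genes all 6 h libraries lay below saline, and 6 h replicate 2 lay far below the other two. Their log2 changes at 6 h were -0.98 (SE 0.43) and -0.94 (SE 0.41), each with a limma adjusted p of 0.71.

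Tmem212 (chromosome 3, 27866065 to 27896391), a membrane protein gene used as an ependymal marker, had -3.09, -2.68 and -2.74 with saline, -2.57 and -3.00 at 15 min, -2.83, -2.94 and -2.65 at 1 h, and -3.55, -3.99 and -2.96 at 6 h. Its 6 h libraries lay below all 1 h libraries and overlapped with saline through replicate 3. The log2 change at 6 h was -0.66 (SE 0.25) against saline and -0.69 (SE 0.25) against 1 h, with limma adjusted p of 0.70 and 0.34. Pifo, known from cilium disassembly, had -3.24, -3.75 and -3.02 with saline, -2.62 and -3.01 at 15 min, -3.73, -3.58 and -2.62 at 1 h, and -4.32, -3.70 and -3.15 at 6 h. The 15 min libraries of Pifo lay just above the saline range, with a log2 change of 0.52 (SE 0.41), and Stoml3, a stomatin relative, had 0.44 (SE 0.37) with overlapping groups.

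**Figure D3:**
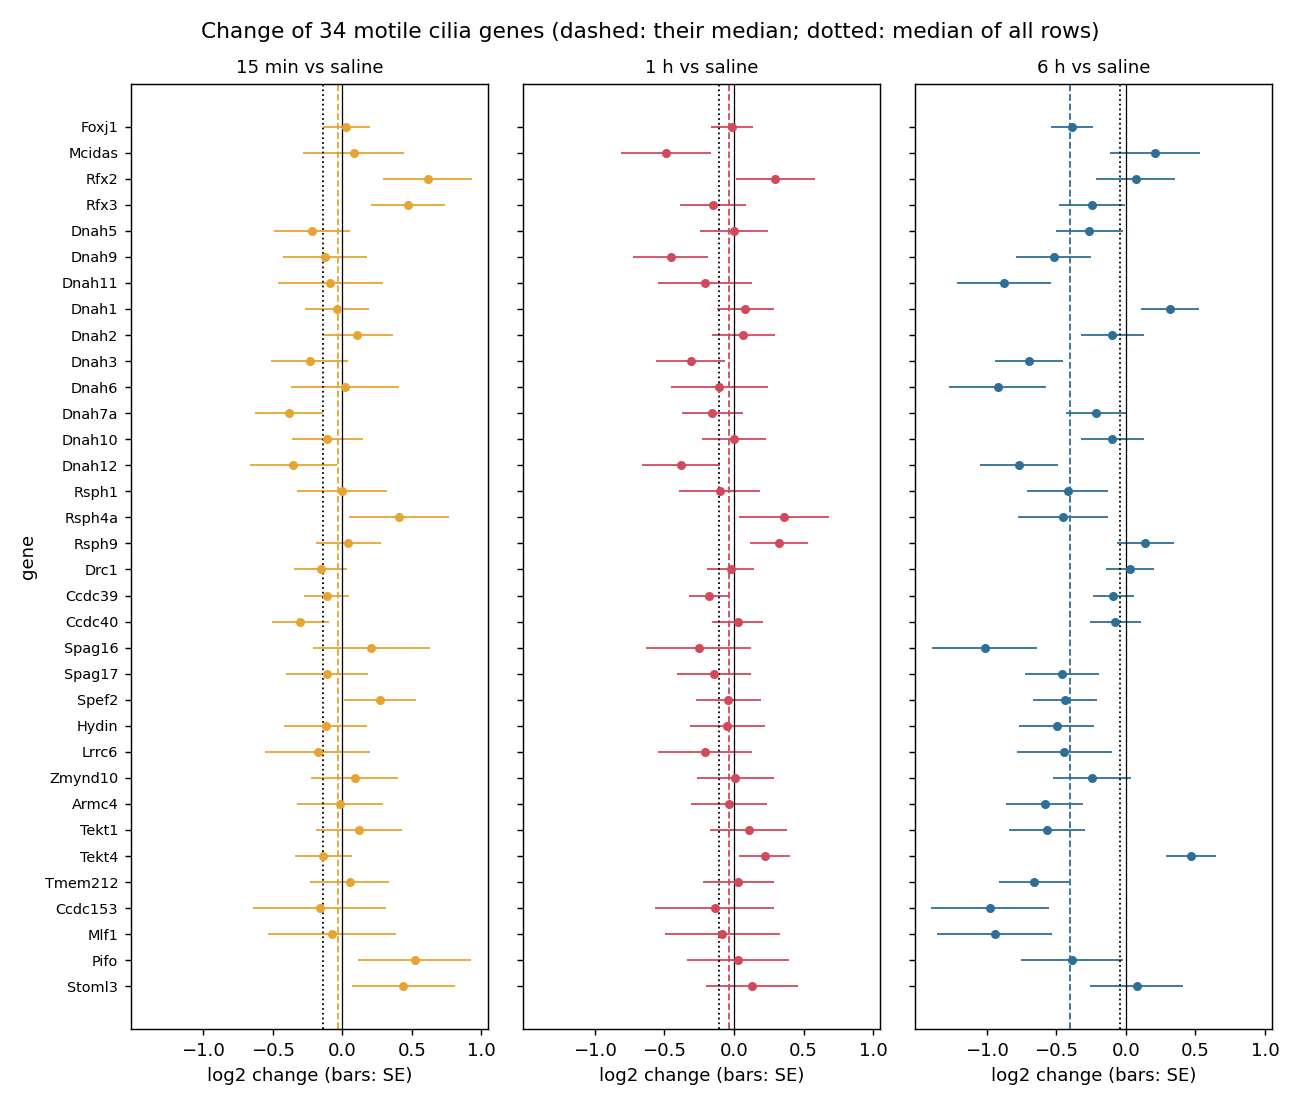
Log2 change against saline (horizontal axis, bars SE) of 34 motile cilia genes at 15 min, 1 h and 6 h after insulin; dashed lines mark the median of the 34 genes and dotted lines the median of all rows. The dashed line lies at -0.03, -0.04 and -0.40, and none of the changes passed the test.

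Between 6 h and 1 h, 29 of 34 genes had a lower mean at 6 h (37.1% of all rows), with a median log2 change of -0.29 beside 0.07 over all rows. At an unadjusted p under 0.05 there were 5 of 34 (11.1% of rows), all of them lower (2.17%), namely Foxj1, Tmem212, Rsph4a, Dnah6 and Tekt1. That number was 10 without 6 h replicate 3, 0 without 6 h replicate 2, 1 without 1 h replicate 3 and 2 without 6 h replicate 1, 1 h replicate 1 or 1 h replicate 2. It was 12 under cyclic loess (9.97% of rows) and 12 with equal medians (11.3%). Every 6 h library lay below every 1 h library for 4 genes (3.01% of rows), Foxj1, Tmem212, Dnah3 and Armc4. This comparison uses no saline library, but it shares the 6 h libraries with the comparison above.

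Within a group, the 34 genes tended to stand high or low in the same library. Replicate 1 at 15 min was above replicate 3 in 31 of 34 genes (54.5% of 25771 complete rows). At 6 h, replicate 3 was the highest of its group in 31 of 34 (42.3% of rows) and replicate 2 the lowest in 23 of 34 (49.1%). Of all 11 libraries, 6 h replicate 2 was the lowest in 17 of 34 genes (21.3% of rows) and 15 min replicate 1 the highest in 13 (4.19%). The mean log2 signal over the 34 genes was -3.70, -3.78 and -3.57 with saline, -3.47 and -3.87 at 15 min, -3.79, -3.88 and -3.55 at 1 h, and -4.15, -4.30 and -3.66 at 6 h. The 6 h libraries thus spread over 0.64 log2, while the mean at 6 h minus that with saline was -0.35. In bulk tissue, fewer ciliated cells and less RNA per cell cannot be told apart.

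Markers of the choroid plexus, the epithelium that hangs in the same ventricles, varied more than the cilia genes. Of 14 markers, 13 passed the filter with a value in every library (Kcnj13 did not, and it had no value in 6 h replicate 3), and 0 of 13 were called at any time. Their mean log2 signal was -1.05, -1.40 and -1.48 with saline, -0.10 and -1.78 at 15 min, -3.35, -2.07 and -0.55 at 1 h, and -3.12, -4.11 and -1.85 at 6 h. Their summed linear signal lay between 41.5 and 63.0 with saline, between 29.3 and 136 at 15 min, between 3.85 and 90.9 at 1 h and between 1.62 and 24.8 at 6 h. Both sets were highest in 15 min replicate 1 and lowest in 6 h replicate 2.

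All 13 choroid plexus markers had log2 changes below 0 at 6 h (57% of all rows), with a median of -1.74. The same held for all 13 at 1 h (66.8% of rows), with a median of -0.65. At 15 min 0 of 13 lay below 0 (68.7% of rows), with a median of 0.39. Ttr, transthyretin, the most abundant of them, had 5.85, 5.22 and 5.50 with saline, 6.98 and 4.71 at 15 min, 1.17, 4.29 and 6.39 at 1 h, and 2.31, -0.73 and 4.44 at 6 h. The 2 sets did not go together in 1 h replicate 1, where the mean of the cilia genes minus their saline mean was -0.10 and that of the choroid plexus markers -2.04. The part of ventricular tissue taken with each sample in the values at 6 h was not tested.

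**Figure D4:**
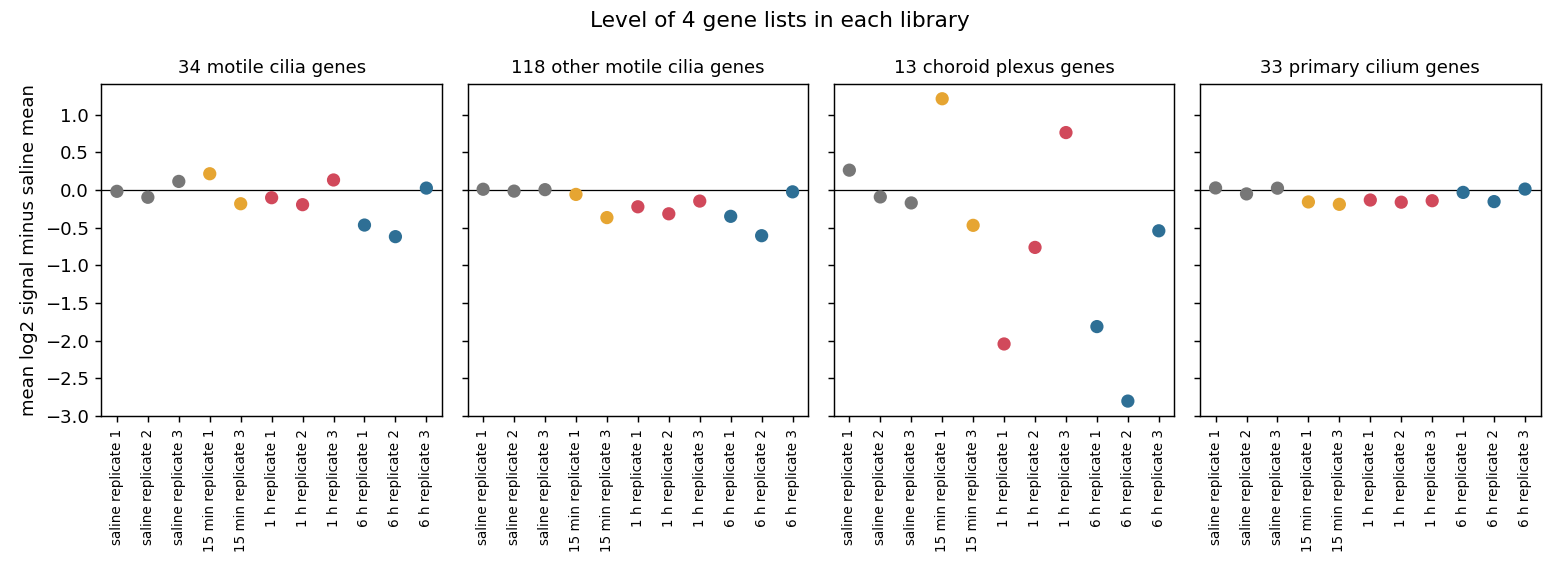
Mean log2 signal of 4 gene lists minus their saline mean (vertical axis) in each of 11 libraries (horizontal axis). The 34 motile cilia genes lie between -0.62 and 0.22, the choroid plexus list between -2.80 and 1.21 and the primary cilium list between -0.19 and 0.03.

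Of 4 listed ependymal genes outside the axoneme, some of them shared with other cells, 0 passed the test at any time. Their log2 changes at 6 h were -1.37 (SE 0.45) for Mia, -0.22 (SE 0.15) for Rarres2, -0.22 (SE 0.17) for Prom1 and -0.06 (SE 0.19) for Cd24a, with a median of -0.22. Prom1 was lower at the earlier times, with -0.54 (SE 0.19) at 15 min and -0.45 (SE 0.17) at 1 h, each with a limma adjusted p of 0.23. Mia had -1.60, -1.50 and -1.84 with saline, -0.96 and -2.48 at 15 min, -1.55, -1.37 and -1.35 at 1 h, and -3.57, -3.52 and -1.95 at 6 h. Its 6 h libraries lay below all saline and 1 h libraries, and the limma adjusted p against saline was 0.68.

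Genes of intraflagellar transport and of the primary cilium, the single sensory cilium that neurons and astrocytes carry, formed a list of 33, of which 0 were called at any time. Log2 changes below 0 numbered 31 of 33 at 15 min (68.7% of all rows), 29 at 1 h (66.8%) and 25 at 6 h (57%). The medians were -0.18, -0.14 and -0.07, each within 0.05 of the median of all rows. An unadjusted p under 0.05 was found for 9 of 33 at 15 min (15.1% of rows), 8 at 1 h (15.7%) and 0 at 6 h (6.98%). Their mean log2 signal was -0.69, -0.77 and -0.70 with saline, -0.88 and -0.91 at 15 min, -0.85, -0.88 and -0.86 at 1 h, and -0.75, -0.87 and -0.71 at 6 h. All libraries at 15 min and 1 h lay below all saline libraries, and those at 6 h overlapped with them. Whether this list and the motile cilia genes differ was not tested.

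Of the cilia lists, a wider one of other motile cilia genes was the only one with calls. Of 129 listed genes, 119 were in the table and 118 passed the filter. At 15 min 0 rose and 2 fell (0.239% of all rows called), at 1 h 0 rose and 2 fell (0.877%), and at 6 h 0 were called (0%). Log2 changes lay below 0 in 90 of 118 at 15 min (68.7% of rows), 92 at 1 h (66.8%) and 97 at 6 h (57%), with medians of -0.15, -0.14 and -0.21. Both genes that fell were Dnah7b and Rsph3b, at 15 min and at 1 h.

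Dnah7b (chromosome 1, 46066071 to 46373551) is a near copy of the inner arm gene Dnah7a. Its log2 signals were 2.82, 1.66 and 1.62 with saline, -1.60 and -1.59 at 15 min, -1.81, -1.72 and -2.31 at 1 h, and 0.23, -1.42 and -0.39 at 6 h. All insulin libraries lay below all saline libraries, by log2 changes of -3.63 (SE 0.46, limma adjusted p = 0.019) at 15 min, -3.98 (SE 0.41, adjusted p = 0.0035) at 1 h and -2.56 (SE 0.41, adjusted p = 0.22) at 6 h. The third copy, Dnah7c (chromosome 1, 46425428 to 46807477), averaged -5.58 ± 0.18 at 15 min (n = 2), -5.64 ± 0.06 at 1 h and -5.64 ± 0.32 at 6 h (n = 3 each), against -5.49 ± 0.16 with saline (SD, n = 3). Its log2 changes were -0.09 (SE 0.27), -0.14 (SE 0.24) and -0.15 (SE 0.24), where Dnah7a had -0.39 (SE 0.24), -0.16 (SE 0.22) and -0.21 (SE 0.22). How reads were shared among the 3 copies is not given in the sources used here, and the values of each copy are uncertain.

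Rsph3b (chromosome 17, 6904716 to 6948356), a radial spoke gene, showed the same order of groups. It had 3.97, 2.72 and 2.77 with saline, -0.39 and -0.06 at 15 min, -0.43, -0.49 and -0.76 at 1 h, and 1.49, 0.36 and 0.76 at 6 h. The log2 changes were -3.38 (SE 0.39, limma adjusted p = 0.014) at 15 min, -3.72 (SE 0.35, adjusted p = 0.0021) at 1 h and -2.28 (SE 0.35, adjusted p = 0.22) at 6 h. Its copy Rsph3a (chromosome 17, 7945614 to 7979556), taken up after its values were seen, had log2 changes of 0.24 (SE 0.15), 0.35 (SE 0.13) and 0.06 (SE 0.13) at these times, with adjusted p of 0.47, 0.24 and 0.91.

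At 1 h the calls of Dnah7b and Rsph3b held under each of 21 alternatives, 11 of which left out 1 library. At 15 min that of Dnah7b was lost without saline replicate 1, 2 or 3 (limma adjusted p = 0.053, 0.0501 and 0.0507) and without 15 min replicate 1 or 3 (0.10 and 0.18), and that of Rsph3b without 15 min replicate 1 or 3 (0.087 and 0.11). With only the 2 groups fitted the 15 min adjusted p was 0.083 for Dnah7b and 0.097 for Rsph3b.

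Rn18s-rs5, 18S ribosomal RNA (chromosome 17, 39846354 to 39848202), also had lower signals in every insulin library than in every saline library. Its log2 signals were 16.00, 13.05 and 13.79 with saline, 9.67 and 10.49 at 15 min, 10.18, 10.51 and 10.22 at 1 h, and 12.19, 11.65 and 11.04 at 6 h. In all 3 rows saline replicate 1 was the highest of the 11 libraries and 6 h lay between saline and the earlier times. The sample numbers in the deposited column names run group by group, from saline over 6 h and 15 min to 1 h. Group and this order thus cannot be told apart, and what the numbers stand for is not stated. Rn18s-rs5 had a limma adjusted p of 0.064 at 15 min, 0.026 at 1 h and 0.56 at 6 h. The 1 h call was lost with the replicate number as a block (limma adjusted p = 0.053), with only the 2 groups fitted (0.064), without saline replicate 3 (0.087) and without 1 h replicate 1, 2 or 3 (0.11, 0.093 and 0.065). The 15 min value was called without saline replicate 1 (0.044) and with a stricter filter on low values (0.043). The part of ribosomal RNA in the values of Dnah7b and Rsph3b was not tested.

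**Figure D5:**
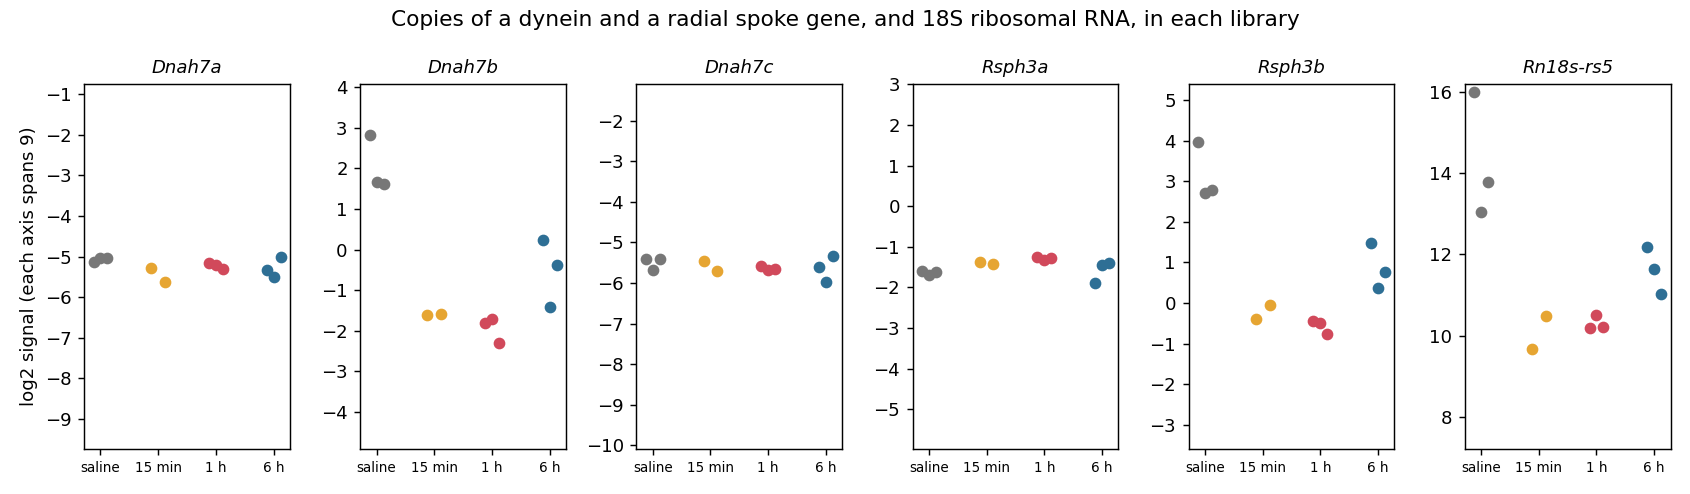
Log2 signal (vertical axes, each spanning 9) of the Dnah7 copies, the Rsph3 copies and 18S ribosomal RNA by group; points are libraries. Dnah7b, Rsph3b and Rn18s-rs5 lie lower in every insulin library than in every saline library, whereas Dnah7a, Dnah7c and Rsph3a have ranges of 0.62, 0.63 and 0.64 over all libraries.

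Reads of a gene and of one overlapping it on the other strand can be told apart only if the counting used strand, which is not given in the sources used here, although the kit was stranded. In the GENCODE annotation of GRCm38, 6 of 34 genes overlapped a protein-coding gene on the opposite strand and 0 on the same strand. They were Rsph9 with Mrps18a (31.0% of the span of Rsph9), Dnah3 with Lyrm1 (19.9%), Ccdc39 with Ttc14 (7.82%), Mlf1 with Gm17402 (4.12%), Spag17 with Wdr3 (1.99%) and Dnah11 with Cdca7l (0.226%). The mean log2 signal of Ccdc39 over all libraries was -0.36, against 3.15 for Ttc14. Dnah3 had -5.16 against -2.12 for Lyrm1, and Spag17 had -6.16 against -0.63 for Wdr3. Rsph9 had -1.19 against -0.50 for Mrps18a, and Dnah11 had -5.43 against -4.74 for Cdca7l. Gm17402 had no value here. Antisense transcripts covered 82.2% of Dnah1, 79.6% of Zmynd10 and 74.0% of Pifo. Where the table held that transcript, its mean log2 signal was far below the gene's, -11.36 for Gm35823 against -2.76 for Dnah1 and -6.90 for Gm34106 against -2.47 for Zmynd10. That of Pifo, Gm42722, had no value here.

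Markers of other cells were measured for the same libraries. Lists for astrocytes, neurons, hippocampal neurons, oligodendrocytes, endothelium, pericytes, meningeal fibroblasts, striatum and blood held no called gene at any time. At 6 h the median log2 changes were 0.12 for 10 astrocyte genes, -0.03 for 6 oligodendrocyte genes and -0.53 for 6 blood genes. They were 0.57 for striatum, -0.26 for meningeal fibroblasts and -0.17 for endothelium (6 genes each). For 8 neuron, 8 hippocampal neuron and 4 pericyte genes they were -0.003, 0.04 and -0.03. The striatum median was 0.84 at 15 min and 0.44 at 1 h.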

How the data were processed

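Hippocampal RNA of 11 mouse libraries was read from both ends, per the labels' protocols, after column extraction and a stranded total RNA kit. Partek 6.7, bcl2fastq and the build GRCm38 are listed without their roles in the submitters' processing notes. The sources used here do not give the aligner, the counting or its use of strand. Each row of the deposited table gives a gene's log2 signals, quantile-normalized by the authors as the values themselves show. Over the values it holds, each library has the same lowest (-13.64), median (-3.20) and highest value (16.00). Over rows with a value in every library the medians differed, from -2.09 in 15 min replicate 3 to -1.83 in 6 h replicate 3. The scaling to equal medians levelled these. Base 2 was inferred from the relation of signal to gene span. Depth is unknown, so its precision cannot be given; between 32037 and 33653 rows had a value. At most 0.0133% of values were equal between 2 libraries.

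Tests used limma 3.58.1 in R 4.3.3 on the deposited values. Rows in the lowest 40% by mean were left out, which kept 27721, of which 1950 had a missing value. A linear model with 4 groups was fitted to all 11 libraries with a mean-variance trend, and p-values were two-sided and adjusted by Benjamini-Hochberg at 0.05 over all rows tested. The comparison of all insulin libraries used 2 groups. The fit was tested on simulated data. Coordinates and promoters are from RefSeq GRCm38.p6, in which 37292 symbols were found, and overlaps from GENCODE.

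The 34 genes and the gene lists were chosen with earlier results of these data known. Values in every library are given for a fixed panel of 9 genes and for the 3 largest rises and 3 largest falls of each comparison with saline. Outside the 34 genes, the rule named Dnah7b, Dnah7c, Rsph3b and Rn18s-rs5. Genes named to spell out a count, Ttr and Mia were chosen after their values were seen. Alternatives were other filters, treatments of missing values, scalings, an offset, other fits, a replicate block and leaving out each library.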

Additional observations from a re-analysis of the deposited data

How the results depend on the processing

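The count of called cilia genes was 0 in each of the 6 comparisons under all alternatives run, and of 2094 log2 changes of single members under alternatives 131 had another sign than in the fit reported, none of them called. Leaving out each of the 11 libraries in turn gave counts of 0 to 0 in every comparison and medians between -0.20 and 0.21 at 15 min, between -0.14 and -0.01 at 1 h and between -0.61 and -0.23 at 6 h. At 15 min the lowest median came without replicate 1 and the highest without replicate 3. Scaling by cyclic loess gave medians of 0.20 at 15 min, 0.16 at 1 h and -0.36 at 6 h, beside 0.00, 0.00 and -0.01 over all rows. Equal medians gave 0.14, 0.10 and -0.37, so that directions at 15 min and 1 h depend on the scaling and that at 6 h did not. With an offset of 0.1 on the linear scale, which shrinks the changes of low genes, the 6 h median was -0.11. Setting missing values at the lowest value of the table called 6 rows at 6 h, where the fit reported called 0; none was a cilia gene. The replicate number as a block called 0 cilia genes in every comparison, gave a median of -0.13 at 15 min and lowered the rows called to 38 at 15 min and 159 at 1 h. Deviations from the group mean had correlations of -0.06 to 0.24 over 15 pairs of same-numbered libraries, 7 of them above 0.1. For other pairs they lay between -0.25 and 0.25. Deviations within a group offset each other, so these values cannot settle whether the numbers pair libraries. The labels do not state a pairing, so the fit reported uses none. With the stricter filter on low values, 18 of the 34 genes were tested. The unknown depth limits what can be said of genes with low signals.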
